A study of Mus musculus with 37 samples.

Results

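Galectins and annexins were followed through 5 groups of sorted mouse uterine NK (uNK) cells. The set holds 10 genes, Lgals1, Lgals3, Lgals9 and Anxa1 to Anxa7, out of 53700 gene identifiers counted in each library. The genes were picked by symbol because Lgals3 and Anxa3 are lower in educated than in uneducated cells, so those differences are a description here and carry no test. Live CD45+ NKp46+ cells, negative for CD3, CD4 and CD8 among other lineage markers and not high for CD11b, had been sorted from uteri of pregnant mice between gestation days 9.5 and 10.5, and their RNA was sequenced in 37 bulk libraries. From WT C57BL6 mice there were 9 libraries of uneducated cells, which carry neither NKG2A nor Ly49C/I, 9 of cells with NKG2A and 6 of Ly49C/I+ cells. From mice labelled NKG2A KO C57BL6 there were 8 libraries of uneducated cells and 5 of Ly49C/I+ cells. Both NKG2A and Ly49C/I inhibit NK cells on binding MHC class I molecules, and NK cells that engage self MHC class I through them during development are called educated. The labels do not say how many mice gave each library, and no treatment is named for any group. P-values therefore measure the spread between these libraries, part of which may be technical.

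Galectins are lectins that bind beta-galactosides on glycoproteins and glycolipids, both inside cells and, after release by a route that bypasses the Golgi, at the cell surface. Annexins are cytosolic proteins that bind phospholipid membranes when calcium rises and take part in vesicle traffic, membrane repair and links between membrane and actin. Galectin-1, encoded by Lgals1, is abundant in the pregnant uterus and is known for its part in maternal tolerance. Galectin-9, encoded by Lgals9, is a ligand of the inhibitory receptor TIM-3, which uNK cells carry.

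Between 13287163 and 18875033 reads were counted on genes per library (median 17273311), and 1 read was worth 0.0537 to 0.0737 CPM, the unit of level used here, which sets a gene's count against the library's total on genes. Reads carry no molecular identifiers, so limits derived from counts cover counting error only. Library sizes were scaled by TMM. Klrc1, the gene of NKG2A, was at 495 to 753 CPM in the 9 NKG2A+ libraries and at 13.9 CPM or less in every other library. Because the uneducated and Ly49C/I+ cells of WT mice also lacked Klrc1, the knockout itself could not be checked. Klra9, the gene of Ly49I, was at 452 to 1137 CPM in the Ly49C/I+ libraries and at 124 CPM or less elsewhere. Klra3, the gene of Ly49C, went against the sort label, at 24.6 to 81.9 CPM in WT and 80.3 to 106 CPM in NKG2A KO Ly49C/I+ libraries against 65.8 to 222 CPM in the other groups. Ly49 genes are near-identical copies whose reads can be shared, so both levels are uncertain. The summed level of 8 NK cell markers lay between 10600.4 and 14534 CPM in all groups. The fewest genes with a count, 13982 to 14197, were found in number 5 of WT uneducated, 9 of WT NKG2A+, 5 of WT Ly49C/I+ and 5 of NKG2A KO Ly49C/I+ cells.

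Of the 10 genes, 7 have a RefSeq promoter entry (GRCm38.p6), and those of Lgals3 and Anxa5 are shown because the levels of these genes went together among uneducated libraries, as described below. Each sequence is the stretch of 250 bases before the start in RefSeq, from 5′ to 3′ on the gene's strand, and capitals mark the letters GGGCGG or their complement CCGCCC, the core of sites for SP and KLF factors. The Lgals3 stretch is chr14:47373610-47373859 on the plus strand, and that of Anxa5 is chr3:36475888-36476137 on the minus strand. The GENCODE locus of Lgals3 given further on begins upstream of the RefSeq start and so contains this stretch, and the Anxa5 stretch overlaps the edge of its GENCODE locus.
Lgals3: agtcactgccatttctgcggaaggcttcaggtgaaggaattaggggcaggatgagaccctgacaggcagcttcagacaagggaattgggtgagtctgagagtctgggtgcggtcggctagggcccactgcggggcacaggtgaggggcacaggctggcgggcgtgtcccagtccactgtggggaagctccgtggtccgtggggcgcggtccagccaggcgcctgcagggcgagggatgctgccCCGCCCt
Anxa5: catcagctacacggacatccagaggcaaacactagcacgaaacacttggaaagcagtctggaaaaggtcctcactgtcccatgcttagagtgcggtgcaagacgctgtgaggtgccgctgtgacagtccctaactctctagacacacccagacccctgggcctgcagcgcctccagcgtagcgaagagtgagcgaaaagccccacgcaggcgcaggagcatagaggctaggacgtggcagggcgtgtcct
The Lgals3 stretch is 66.0% G or C with 13 CpG, and that of Anxa5 is 58.8% G or C with 13 CpG, against a median of 52.4% and 6 CpG over 32851 promoters of this length. Lgals3 holds 1 match to GGGCGG on the strand opposite to the gene and Anxa5 holds none, while 32.7% of these promoters hold at least 1. No TATAAA was found in either on any strand (12.4% of promoters), nor TGANTCA, the letters bound by AP-1 (6.75%). A match to letters is no evidence that a factor binds.

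Per kilobase of exon, Lgals1 stood far above the other members in every group. In WT uneducated cells it was at 2562 ± 529 CPM per kilobase (SD, n = 9), and only 9 of 28649 genes with a length and a count were higher. Anxa2, which pairs with S100a10 at the membrane, followed at 495 ± 51.7 CPM per kilobase, and 85 genes were above it. Lgals3 (254 ± 55.0 CPM per kilobase) and Anxa6 (252 ± 41.6) came next and did not differ beyond their spread, Lgals3 being the higher of the pair in 3 of 9 libraries. Anxa5 (123 ± 23.0), Lgals9 (113 ± 17.0) and Anxa1 (109 ± 11.7) came below these, and neighbours among them also differed by less than their SD. Anxa7 (26.0 ± 4.19), Anxa4 (16.6 ± 2.95) and Anxa3 (8.41 ± 3.38 CPM per kilobase) were the lowest, in that order in 9 of 9 libraries. In WT NKG2A+ cells Lgals3 stood sixth, at 108 ± 14.8 CPM per kilobase (SD, n = 9), below Anxa6 (345 ± 36.9), Lgals9 (147 ± 15.1) and Anxa1 (125 ± 12.0). In WT Ly49C/I+ cells Lgals3 (127 ± 11.5 CPM per kilobase, SD, n = 6) and Lgals9 (126 ± 14.5) were within their spread of each other.

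Lgals3 encodes galectin-3, the galectin that joins its carbohydrate recognition domain to a long tail through which it forms multimers. Its locus spans chr14:47367751-47386160 on the plus strand (GRCm38, GENCODE M21), and none of its 50-base stretches occurs in a transcript of another gene. In the 9 WT uneducated libraries Lgals3 was at 337 CPM at the lowest, 456 at the median and 629.5 at the highest (mean 471 ± 102, SD). The 9 WT NKG2A+ libraries lay between 172 and 258 CPM with a median of 190 (mean 201 ± 27.5), and the 6 WT Ly49C/I+ libraries between 209.6 and 267 CPM with a median of 236 (mean 236 ± 21.3). Every educated WT library thus lay below every uneducated WT library. In NKG2A KO mice the 8 uneducated libraries lay between 254 and 509.6 CPM (median 354, mean 369 ± 78.1). The 5 Ly49C/I+ libraries were at 154, 159, 216, 227 and 177 CPM (mean 186 ± 33.2), again all below the uneducated ones. The fitted log2 fold change over uneducated cells was -1.22 (SE 0.12) in WT NKG2A+ cells, a level 2.33-fold higher without the receptors. It was -0.98 (SE 0.14) in WT Ly49C/I+ cells and -0.98 (SE 0.14) in NKG2A KO Ly49C/I+ cells. Both WT comparisons share the 9 uneducated libraries. In bulk RNA, fewer cells with the transcript and less transcript per cell cannot be told apart.

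**Figure D1:**
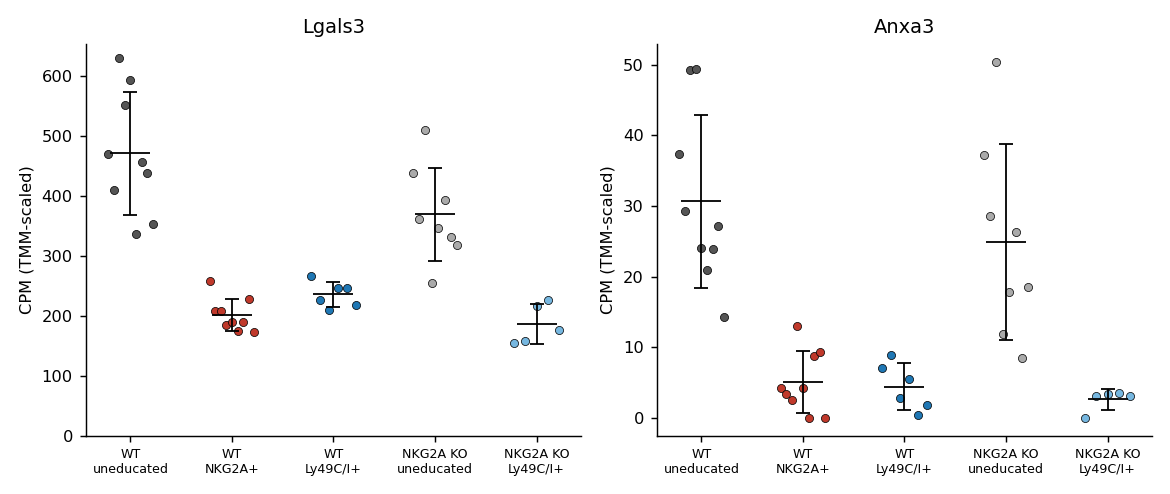
Level of Lgals3 (left) and Anxa3 (right) in each library, in CPM on a linear axis, for the 5 groups of sorted uNK cells; points are libraries and the bars give the mean and SD. For both genes the educated libraries lie below all uneducated libraries of their genotype, with Lgals3 at 172 to 258 CPM in WT NKG2A+ cells against 337 to 629.5 CPM in WT uneducated cells.

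Anxa3 encodes annexin A3, best known from neutrophils, where it sits on granules. It was the least abundant member and the one with the steepest difference. The gene lies at chr5:96793339-96845966 on the plus strand, and 1.80% of its 50-base stretches are also found in the overlapping gene Gm42603. The 9 WT uneducated libraries had 14.3 CPM at the lowest, 27.2 at the median and 49.5 at the highest (mean 30.7 ± 12.3, SD), and the 8 NKG2A KO uneducated libraries had 8.55, 22.4 and 50.4 (mean 24.9 ± 13.9). In educated cells the level was near or under the detection filter of 5 CPM. WT NKG2A+ libraries ranged from 0 to 13.1 CPM (median 4.21, mean 5.07 ± 4.45, n = 9), and no read was counted in numbers 6 and 9, where a count of 0 allows up to 0.182 and 0.173 CPM. WT Ly49C/I+ libraries ranged from 0.470 to 8.98 CPM (median 4.16, mean 4.44 ± 3.28, n = 6). The 5 NKG2A KO Ly49C/I+ libraries were at 0, 3.09, 3.35, 3.51 and 3.15 CPM (mean 2.62 ± 1.48), where the 0 allows up to 0.162 CPM. No educated library reached the lowest uneducated library of its genotype. The log2 fold changes over uneducated cells were -2.58 (SE 0.60) in WT NKG2A+, -2.76 (SE 0.48) in WT Ly49C/I+ and -3.24 (SE 0.62) in NKG2A KO Ly49C/I+ cells. Anxa3 passed the low-count filter through the uneducated libraries, so that it could be tested at all only because it was high there.

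Among the other galectins, Lgals1 and Lgals9 lay on opposite sides of 0 in WT NKG2A+ cells. Lgals1 was at 1762 to 3408.5 CPM in WT uneducated cells (median 2236), at 1641 to 1974 in WT NKG2A+ (median 1771) and at 1568 to 1925 in WT Ly49C/I+ cells (median 1774). In cells of NKG2A KO mice it was at 1728 to 2464 CPM in uneducated cells (median 2021) and at 1394, 1669, 1651, 1648 and 1746 CPM in Ly49C/I+ cells. The groups overlapped in each pair, and the log2 fold changes were -0.36 (SE 0.10), -0.37 (SE 0.12) and -0.32 (SE 0.09) for WT NKG2A+, WT Ly49C/I+ and NKG2A KO Ly49C/I+ cells. Lgals9 was at 187 to 290 CPM in WT uneducated cells (median 240), at 273 to 362 in WT NKG2A+ (median 316) and at 235 to 312 in WT Ly49C/I+ cells (median 270). Among NKG2A KO libraries it was at 225 to 322 CPM in uneducated cells (median 274) and at 292, 299, 306, 303 and 316 CPM in Ly49C/I+ cells. Lgals9 had log2 fold changes of 0.39 (SE 0.09), 0.18 (SE 0.11) and 0.17 (SE 0.08) in the same order, with overlapping groups throughout.

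Annexins 2, 4, 5 and 7 were all lower in educated cells by the fitted value, and by less than Lgals3. Anxa5, whose protein binds exposed phosphatidylserine and is used as a probe of dying cells, was at 166 to 274 CPM in WT uneducated cells (median 228). It was at 115 to 177 CPM in WT NKG2A+ (median 146) and at 113 to 145 CPM in WT Ly49C/I+ cells (median 125), and the latter libraries all lay below the uneducated ones. In NKG2A KO mice Anxa5 was at 125 to 253 CPM in uneducated cells (median 192) and at 96.0, 106, 122, 127 and 125 CPM in Ly49C/I+ cells, where the groups overlapped narrowly. The log2 fold changes of Anxa5 were -0.61 (SE 0.11), -0.77 (SE 0.13) and -0.69 (SE 0.14) in WT NKG2A+, WT Ly49C/I+ and NKG2A KO Ly49C/I+ cells. Anxa7, an annexin that takes part in exocytosis, went from a mean of 156 ± 25.1 CPM in WT uneducated cells (SD, n = 9) to 115 ± 18.9 in NKG2A+ (n = 9) and 106 ± 15.0 in Ly49C/I+ cells (n = 6). Anxa7 levels of NKG2A KO mice were 142 ± 25.6 CPM in uneducated (n = 8) and 98.6 ± 17.2 in Ly49C/I+ cells (n = 5). Its log2 fold changes were -0.43 (SE 0.11), -0.53 (SE 0.12) and -0.53 (SE 0.13) in the same order.

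Anxa4 and Anxa2 differed less evenly. Anxa4, best known from epithelia, was at 77.2 ± 13.7 CPM in WT uneducated (SD, n = 9), 52.5 ± 6.05 in WT NKG2A+ (n = 9) and 54.6 ± 5.78 in WT Ly49C/I+ cells (n = 6). Among NKG2A KO libraries it was at 59.0 ± 10.1 CPM in uneducated cells (n = 8) and 45.4 ± 10.4 in Ly49C/I+ cells (n = 5). The log2 fold changes of Anxa4 were -0.55 (SE 0.11), -0.48 (SE 0.13) and -0.37 (SE 0.16). Anxa2 was at 1636 to 2294 CPM in WT uneducated libraries (median 1819), at 1516 to 1917 in WT NKG2A+ (median 1696) and at 1337 to 1571 in WT Ly49C/I+ libraries (median 1480). All 6 Ly49C/I+ libraries lay below the uneducated ones, while the NKG2A+ libraries overlapped both groups. In NKG2A KO mice the Ly49C/I+ libraries had 1281, 1577, 1567, 1549 and 1488 CPM of Anxa2, all below the 1611 to 2054 CPM of the uneducated ones. Anxa2 had log2 fold changes of -0.13 (SE 0.07), -0.31 (SE 0.08) and -0.27 (SE 0.08).

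Anxa6, Anxa1 and Lgals9 had fitted values at or above 0 in each educated group, that of Anxa1 in WT Ly49C/I+ cells being too near 0 to give a direction. Anxa6, the double-length annexin with 2 sets of membrane-binding repeats, was at 483.5 to 851 CPM in WT uneducated libraries (median 800.3) and at 863 to 1198 CPM in WT NKG2A+ libraries (median 1002), which all lay above. The 6 WT Ly49C/I+ libraries had 592 to 879.5 CPM (median 788), inside the range of the uneducated ones apart from number 1. In NKG2A KO mice the uneducated libraries were at 690.3 to 988 CPM (median 883) and the Ly49C/I+ libraries at 896, 909, 973, 896 and 862 CPM. The log2 fold changes of Anxa6 were 0.46 (SE 0.09), 0.07 (SE 0.11) and 0.09 (SE 0.09). Anxa1, the glucocorticoid-induced annexin that acts on formyl peptide receptors, was at 243 to 357 CPM in WT uneducated (median 322), 302 to 403 in WT NKG2A+ (median 377) and 289 to 358 in WT Ly49C/I+ cells (median 301). Its NKG2A KO levels were 258 to 398 CPM in uneducated cells (median 347) and 369.6, 414, 387, 389 and 323 CPM in Ly49C/I+ cells. Anxa1 had log2 fold changes of 0.22 (SE 0.07), 0.01 (SE 0.08) and 0.14 (SE 0.10), and all groups overlapped.

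**Figure D2:**
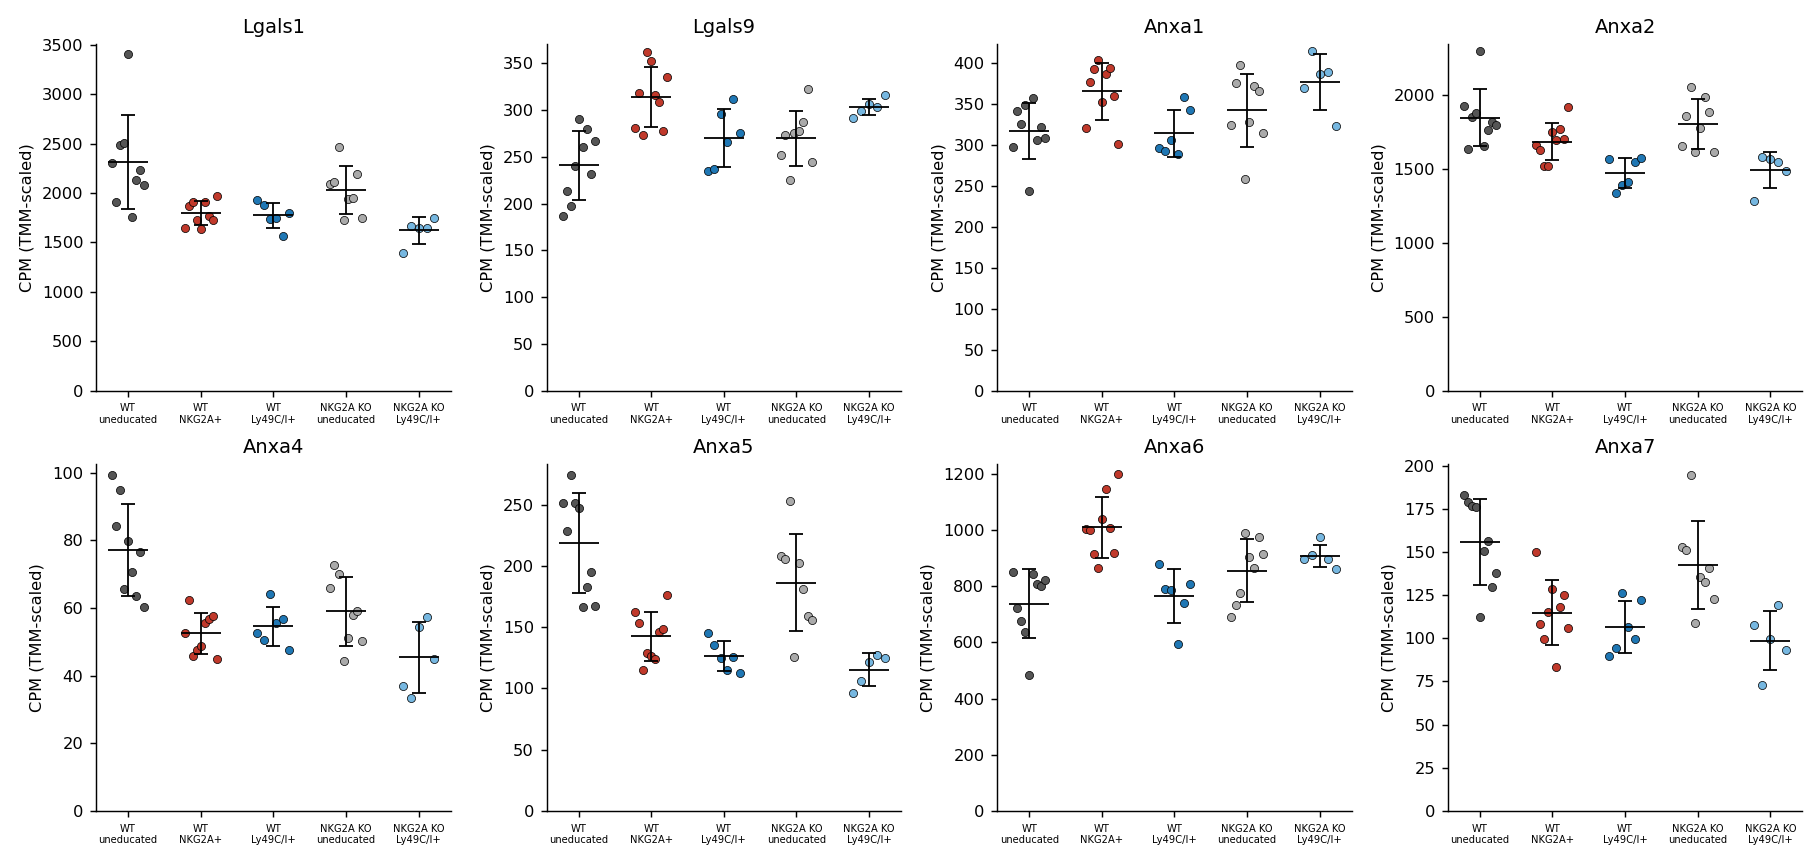
Level of the other 8 members in each library, in CPM on linear axes that start at 0, for the 5 groups; points are libraries and the bars give the mean and SD. Anxa6 is highest in WT NKG2A+ cells (863 to 1198 CPM), whereas Anxa5 is highest in both uneducated groups.

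Counted by edgeR's quasi-likelihood test at an adjusted p of 0.05, 8 of 10 members were past the threshold between WT NKG2A+ and uneducated cells, 2 of them higher (Lgals9 and Anxa6) and 6 lower, where 15% of 9339 genes tested were, 7.47% higher and 7.56% lower. In that comparison the groups did not overlap for Lgals3 and Anxa3 among the lower members, against 0.835% of genes, and for Anxa6 among the higher ones, against 1.18% of genes. In WT Ly49C/I+ cells 6 of 10 members were past it, all lower (Lgals3, Anxa2, Anxa3, Anxa4, Anxa5 and Anxa7), where 9.2% of 9292 genes were, 4.5% higher and 4.7% lower, although leaving out 1 library moved the 855 genes behind this share to between 466 (without Ly49C/I+ library 7) and 1227. Of the members 4 did not overlap and were lower, against 1.4% of genes. In NKG2A KO Ly49C/I+ cells 6 of 10 were past it, all lower (Lgals1, Lgals3, Anxa2, Anxa3, Anxa5 and Anxa7), where 16.3% of 9299 genes were, 7.34% higher and 8.99% lower. Of the members 3 did not overlap and were lower, against 4.12% of genes. The medians of the members' log2 fold changes were -0.39, -0.42 and -0.35 in these comparisons, and those of all genes tested were 0.01, 0.01 and 0.02. As the members were chosen for this contrast, nothing is read from these counts.

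**Figure D3:**
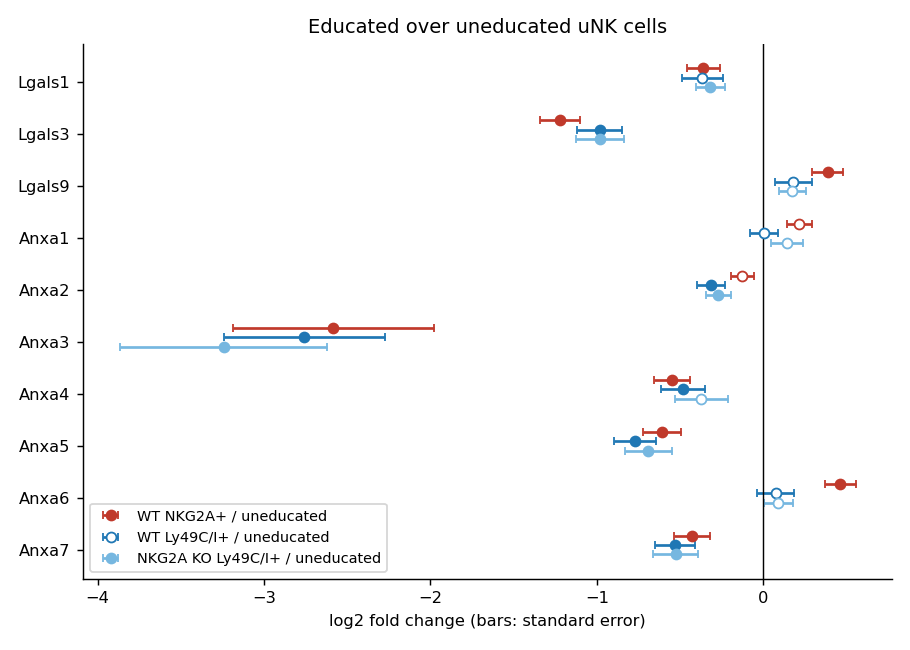
Fitted log2 fold change of each member over uneducated cells of the same genotype, with the standard error as the bar, for WT NKG2A+, WT Ly49C/I+ and NKG2A KO Ly49C/I+ cells; filled points passed an adjusted p of 0.05. Lgals3 lies near -1 and Anxa3 near -3 in all of them, while Anxa6 is filled only for WT NKG2A+ cells (0.46). The genes were picked by this contrast, so filled points are a description here and carry no test.

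Some markers of other cells moved with education as well. The sum of 9 macrophage or monocyte markers overlapped widely between groups, at 33.8 to 149 CPM in WT uneducated, 12.1 to 322 in WT NKG2A+ and 20.2 to 406 in WT Ly49C/I+ libraries. Adgre1 was at 5.00 CPM or less in WT uneducated libraries, so other markers of this list made up most of the sum there. The sum of 6 neutrophil markers had a median of 3.59 CPM in WT uneducated libraries and 12.2 CPM at the highest. Its median was 6.15 CPM in WT NKG2A+ and 0.0278 CPM in WT Ly49C/I+ libraries, with 37.1 and 56.1 CPM at the highest. In NKG2A KO mice it reached 5.67 CPM in uneducated and 4.35 CPM in Ly49C/I+ libraries, so it had no common direction. The sum of 3 mast cell and basophil markers was 18.5 to 79.1 CPM in WT uneducated and 14.3 to 49.7 CPM in NKG2A KO uneducated libraries. It was 6.43 to 21.4 CPM in WT NKG2A+, 4.34 to 15.7 in WT Ly49C/I+ and 0.593 to 11.3 CPM in NKG2A KO Ly49C/I+ libraries. Mcpt8 and Cpa3 made up nearly all of this sum, and Fcer1a had no count in 8 of 9 WT uneducated libraries. The sum of 5 epithelium or trophoblast markers was 47.2 to 196 CPM in WT and 35.2 to 74.6 CPM in NKG2A KO uneducated libraries, against 19.7 to 80.3 in WT NKG2A+, 26.3 to 44.3 in WT Ly49C/I+ and 10.1 to 33.8 CPM in NKG2A KO Ly49C/I+ libraries. Epcam was at 65.6 ± 15.1 CPM (SD, n = 9) in WT uneducated against 26.8 ± 7.85 (n = 9) in WT NKG2A+ cells, whereas the keratin gene Krt8 was at means of 4.68 and 5.13 CPM. The sum of 3 endothelial markers was 178 to 346 CPM in uneducated and 121 to 218 CPM in educated libraries. Pecam1 was at 274 ± 49.1 CPM in WT uneducated (SD, n = 9) against 161 ± 27.7 CPM in WT NKG2A+ cells (n = 9), while the endothelial gene Cdh5 was at 0.490 CPM or less. The sum of 4 dendritic cell markers reached 19.3 CPM in uneducated and 3.17 CPM in educated libraries, and that of 2 erythroid markers was 65.3 to 374 CPM in uneducated and 115 to 745 CPM in educated ones. T cell markers (6 genes) lay between 85.8 and 242 CPM over all libraries, and stromal or decidual markers (5 genes) between 0 and 886 CPM. The part of these cells in the levels of Lgals3 and Anxa3 was not tested.

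Whether the educated populations differ from each other was not used in choosing the genes, and is tested. Between WT NKG2A+ and WT Ly49C/I+ cells, 1 of the 9 members that passed the filter was past the threshold, where 2.73% of 9308 genes tested were, 1.31% higher and 1.42% lower, although the 254 genes behind this share became 147 without Ly49C/I+ library 7. Anxa6 was higher in NKG2A+ cells, with a mean of 1010 ± 108 CPM (SD, n = 9), than in Ly49C/I+ cells, with 766 ± 96.4 CPM (SD, n = 6). The log2 fold change was 0.39 (SE 0.08, adjusted p = 0.0166, edgeR quasi-likelihood test). All NKG2A+ libraries but number 4 lay above every Ly49C/I+ library. With no filter on low counts, Anxa6 did not pass (adjusted p = 0.0512, same test). Nor did it pass with a block for the replicate numbers (log2 fold change 0.34, adjusted p = 0.0576, same test). The same-numbered library was the best match in 5 of 6 pairs of these groups. The call of Anxa6 thus rests on a fit that may leave out a real pairing. The share of reads given to no gene was also unequal here, 3.01% to 4.49% in NKG2A+ and 4.16% to 6.83% in Ly49C/I+ libraries, and its part was not tested.

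The other members did not pass in that comparison. Before adjustment 5 of 9 members, Anxa6 among them, were under 0.05 by edgeR's quasi-likelihood test, against 18.4% of genes. Anxa2 came nearest, with a log2 fold change of 0.18 (SE 0.06, adjusted p = 0.0876). Lgals3 was at -0.24 (SE 0.09, adjusted p = 0.169), Lgals9 at 0.20 (SE 0.08, adjusted p = 0.182) and Anxa1 at 0.21 (SE 0.07, adjusted p = 0.138). Anxa4, Anxa5, Anxa7 and Lgals1 had adjusted p between 0.437 and 0.986. Anxa3 was under the filter and was tested alone on log2(CPM + 1), a test chosen after its values were seen, with a difference of -0.03 (two-sided exact permutation test, p = 0.955).

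Between genotypes, no member passed in either population. Among uneducated cells (NKG2A KO, n = 8, against WT, n = 9), 0 of 10 members and 0 of 9288 genes passed edgeR's quasi-likelihood test (0%), with 619 genes (6.66%) at an unadjusted p under 0.05. DESeq2 and the likelihood ratio test called 1 gene each, which was no member. Lgals3 had a log2 fold change of -0.37 (SE 0.14, adjusted p = 0.639), and Anxa4 one of -0.40 (SE 0.12, adjusted p = 0.507), and these were the only members under 0.05 before adjustment. Anxa3 was at -0.31 (SE 0.30, adjusted p = 0.881).

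Among Ly49C/I+ cells (NKG2A KO, n = 5, against WT, n = 6), 0 of 9 members tested and 0 of 9344 genes passed (0%), with 992 genes (10.6%) under 0.05 before adjustment. The likelihood ratio test called 60 genes and DESeq2 84, with no member among them. Lgals3 was again lower in NKG2A KO cells by the fitted value, at -0.35 (SE 0.11, adjusted p = 0.320, edgeR quasi-likelihood test). Anxa1 was at 0.25 (SE 0.08, adjusted p = 0.345) and Anxa6 at 0.23 (SE 0.09, adjusted p = 0.382). Anxa3, tested alone after its values were seen, differed by -0.49 on the log2(CPM + 1) scale (two-sided exact permutation test, p = 0.435, and 0.870 adjusted over the pair of Anxa3 tests).

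Whether the Ly49C/I+ effect differs between genotypes was tested by the interaction term of edgeR's quasi-likelihood fit. Past the threshold were 0 of 10 members and 0 of 9322 genes (0%), with 407 genes (4.37%) and no member under 0.05 before adjustment, and 1 gene each by DESeq2 and the likelihood ratio test. The difference of the log2 fold changes, NKG2A KO minus WT, was 0.02 (SE 0.20) for Lgals3, 0.09 (SE 0.19) for Anxa5 and 0.02 (SE 0.18) for Anxa7. For Anxa3 it was -0.47 with an SE of 0.75, so that a difference of that size could not be resolved for this low gene. The adjusted p of every member was at least 0.999. If the genes were picked on WT cells only, the WT side of this difference had been used for Lgals3 and Anxa3.

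**Figure D4:**
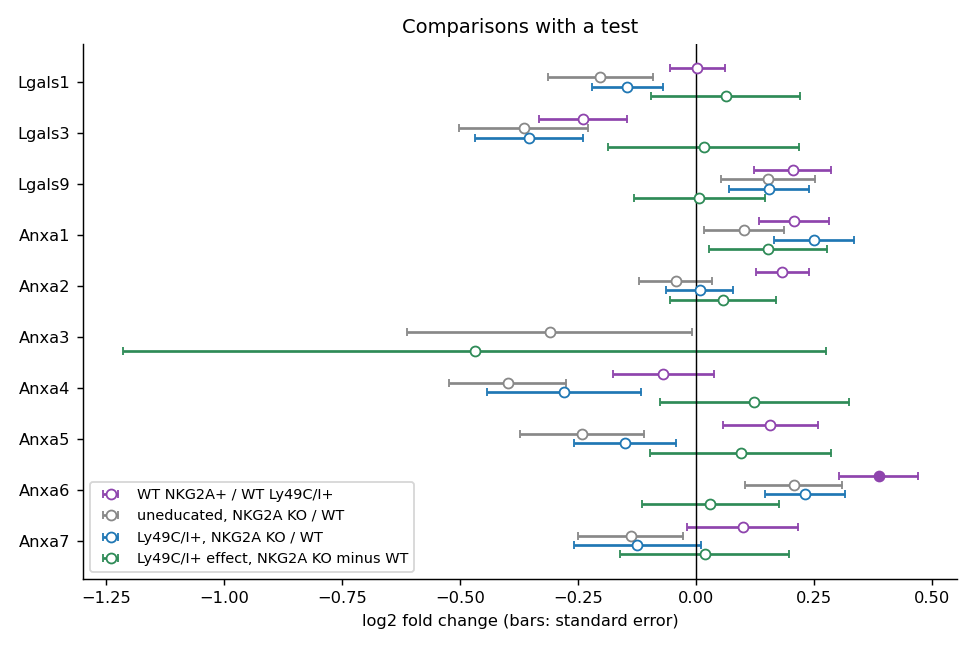
Fitted log2 fold change of each member, with the standard error as the bar, in the comparison of WT NKG2A+ with WT Ly49C/I+ cells, in NKG2A KO against WT cells of both populations, and for the Ly49C/I+ effect in NKG2A KO minus that in WT cells. The only filled point, past an adjusted p of 0.05, is Anxa6 in NKG2A+ against Ly49C/I+ cells (0.39); Anxa3 has no point where it was under the filter.

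Lgals3 also varied among libraries of 1 group, and some members went with it in uneducated libraries. Its log2(CPM + 1) was set against each of the other 9 members in the 4 groups of at least 6 libraries, 36 relations in all, with two-sided exact permutation tests and Benjamini-Hochberg adjustment over them. In WT uneducated libraries (n = 9) Lgals3 and Anxa5 had a Pearson r of 0.865 (exact permutation p = 0.00336, adjusted 0.0324) and a Spearman rho of 0.883 (exact permutation p = 0.00308, adjusted 0.0369). Without the 2 libraries farthest from the median of Lgals3 the r was 0.753. In NKG2A KO uneducated libraries (n = 8) the r was 0.920 (exact permutation p = 0.00256, adjusted 0.0324) and the rho 0.929 (exact permutation p = 0.00223, adjusted 0.0369), with an r of 0.676 without the 2 farthest. Lgals1 followed Lgals3 in WT uneducated libraries, with an r of 0.826 (exact permutation p = 0.00316, adjusted 0.0324), a rho of 0.917 (exact permutation p = 0.00131, adjusted 0.0369) and an r of 0.838 without the 2 farthest. The r of Lgals3 with Lgals1 was 0.803 in NKG2A KO uneducated libraries (exact permutation p = 0.0182, adjusted 0.0935), with a rho of 0.691 (exact permutation p = 0.0694, adjusted 0.178). That r was 0.348 without the 2 farthest libraries, on which the relation rests. Anxa7 had an r of 0.914 there (exact permutation p = 0.00360, adjusted 0.0324), a rho of 0.833 (exact permutation p = 0.0154, adjusted 0.0923) and an r of 0.617 without the 2 farthest. In WT uneducated libraries the r of Anxa7 was 0.0616 (exact permutation p = 0.874, adjusted 0.890), with a rho of 0.15 (exact permutation p = 0.708, adjusted 0.850) and an r of -0.158 without the 2 farthest. Without library 5, which had the fewest genes of this group, that r was 0.56 (n = 8). Anxa3 had an r of 0.728 in WT (exact permutation p = 0.0261, adjusted 0.0952) and 0.849 in NKG2A KO uneducated libraries (exact permutation p = 0.00823, adjusted 0.0593). Its rho was 0.683 and 0.857 (exact permutation p = 0.0503 and 0.0107, adjusted 0.175 and 0.0771), and its r without the 2 farthest 0.603 and 0.772. Without WT uneducated library 5, the r there was 0.896 for Anxa3, 0.861 for Anxa5 and 0.882 for Lgals1. The values without library 5 were not tested. In WT and NKG2A KO uneducated libraries Anxa1 had an r of -0.41 and 0.76, and Anxa4 one of 0.44 and 0.80. Anxa2 was at 0.67 and 0.63 and Lgals9 at -0.21 and -0.51, and none of these passed after adjustment. The share of all genes with such an r in these libraries was not counted.

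Anxa6 ran the other way without passing. Its r with Lgals3 was -0.721 in WT (exact permutation p = 0.0223, adjusted 0.0952) and -0.748 in NKG2A KO uneducated libraries (exact permutation p = 0.0299, adjusted 0.0952). Its rho was -0.633 and -0.857 (exact permutation p = 0.0760 and 0.0107, adjusted 0.182 and 0.0771), and its r without the 2 farthest -0.763 and -0.776. In educated cells no relation passed. Lgals3 and Anxa5 had an r of 0.218 in WT NKG2A+ (exact permutation p = 0.572, adjusted 0.71) and 0.449 in WT Ly49C/I+ libraries (exact permutation p = 0.382, adjusted 0.573). Their rho was 0.1 and 0.6 (exact permutation p = 0.810 and 0.242, adjusted 0.911 and 0.435), and their r without the 2 farthest -0.324 and 0.0170. Without the library with the fewest genes in each group, their r was 0.65 (n = 8) and 0.67 (n = 5), values that were not tested. A relation of Lgals3 with Anxa5 in educated cells is thus not settled. Anxa7 had an r of 0.671 in WT NKG2A+ (exact permutation p = 0.0487, adjusted 0.125) and -0.799 in WT Ly49C/I+ libraries (exact permutation p = 0.0736, adjusted 0.177). Its rho was 0.533 and -0.829 (exact permutation p = 0.147 and 0.0583, adjusted 0.295 and 0.175), and its r without the 2 farthest 0.2001 and -0.424. The difference from uneducated cells was not tested. Over all 37 libraries, deviations of Lgals3 from the group means had an r of 0.652 with those of the epithelium or trophoblast marker sum, 0.579 with the macrophage sum and 0.453 with the mast cell and basophil sum. For Anxa3 these were 0.297, 0.717 and 0.609. The neutrophil, stromal and endothelial sums had an r of 0.395, 0.414 and 0.393 with Lgals3 and of 0.405, 0.386 and 0.354 with Anxa3. Those of dendritic, T and erythroid cells were at 0.213 or less for both genes. With the NK cell marker sum the r was -0.011 for Lgals3 and -0.446 for Anxa3. The part of those cells in the relations above was not tested.

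**Figure D5:**
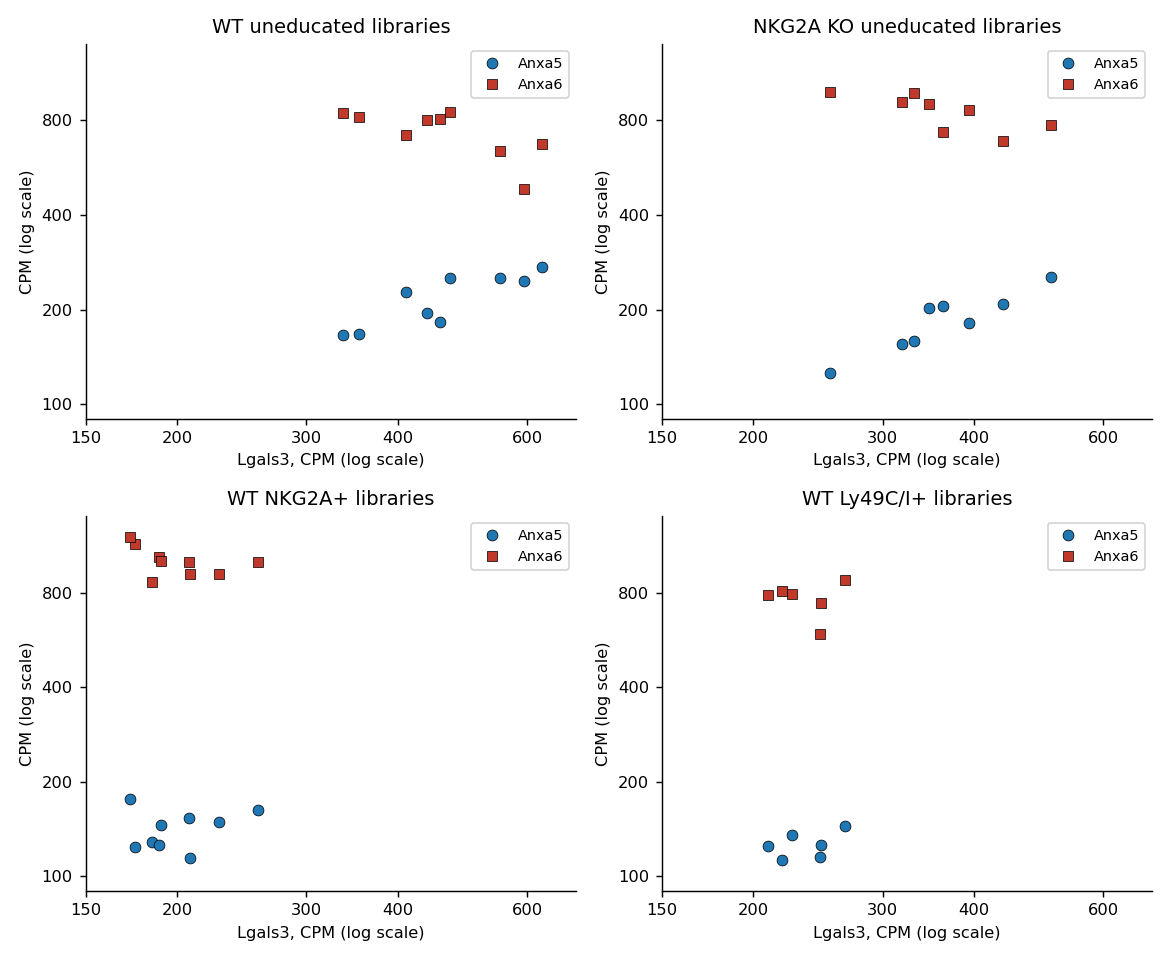
Levels of Anxa5 (circles) and Anxa6 (squares) against Lgals3, in CPM on log axes, for the libraries of the 4 groups of at least 6; each library gives 1 circle and 1 square. In both uneducated groups Anxa5 is higher where Lgals3 is higher (r of 0.865 and 0.920), and the educated libraries cover a narrow range of Lgals3.

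As a description over all 37 libraries and 9287 genes, the levels most like Lgals3 were those of Gpx1 (r = 0.964), Mt1 (0.935) and Cst3 (0.934). Taken as deviations from the group means, the nearest were Gpx1 (0.871), Mt1 (0.789) and Anxa5 (0.753). Gpx1 encodes a glutathione peroxidase, Mt1 a metallothionein and Cst3 the protease inhibitor cystatin C. Levels most like Anxa3 were those of Gzme (0.904), Gzmd (0.901) and C1qbp (0.900), the first pair being granzyme genes, and the deviations most like it were those of Dixdc1 (0.785), C1qbp (0.757) and Gzme (0.730). These values share the libraries, their depth and the differences between groups.

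Ligands and receptors of galectins held genes in both directions, 17 of 18 being above the filter. In WT NKG2A+ against uneducated cells 4 were higher and 5 lower past the threshold, in WT Ly49C/I+ cells 1 and 4, and in NKG2A KO Ly49C/I+ cells 4 and 5. Over all genes tested, 7.47% were higher and 7.56% lower in the first comparison. The shares were 4.5% and 4.7% in the second, and 7.34% and 8.99% in the third. Havcr2, the gene of TIM-3, had the most negative log2 fold change of those past the threshold. It was at 94.5 ± 50.6 CPM in WT uneducated (SD, n = 9), 19.1 ± 13.9 in WT NKG2A+ (n = 9) and 9.99 ± 9.15 in WT Ly49C/I+ cells (n = 6). In NKG2A KO mice it was at 66.1 ± 39.8 CPM in uneducated (n = 8) and 8.92 ± 7.56 CPM in Ly49C/I+ cells (n = 5). Its log2 fold changes were -2.30 (SE 0.55), -3.23 (SE 0.65) and -2.88 (SE 0.64). Cd2 was higher by 0.71 (SE 0.15) and 0.72 (SE 0.17) in the WT comparisons, Pdia4 was lower by the fitted values of -0.63 (SE 0.17) in WT and -0.82 (SE 0.15) in NKG2A KO Ly49C/I+ cells, and Cd69 was higher by 0.71 (SE 0.19) in NKG2A KO Ly49C/I+ cells. In the tested comparison of WT NKG2A+ with Ly49C/I+ cells, 2 of 17 passed, against 2.73% of 9308 genes. Cd44, the hyaluronan receptor, had a mean of 142 ± 22.2 CPM (SD, n = 9) in the former and 83.2 ± 18.3 (n = 6) in the latter, and the log2 fold change was 0.75 (SE 0.14, adjusted p = 0.00660, edgeR quasi-likelihood test). Ptprc, the gene of CD45, had one of 0.21 (SE 0.05, adjusted p = 0.0436). Cd44 was also higher in NKG2A+ than in uneducated WT cells (log2 fold change 1.03, SE 0.15).

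Of 16 genes for annexin partners, annexin receptors and membrane repair, 11 were above the filter. S100a11, which binds annexins A1 and A6 in the presence of calcium, was lower by fitted log2 fold changes of -0.64 (SE 0.15), -0.63 (SE 0.18) and -0.37 (SE 0.10) in WT NKG2A+, WT Ly49C/I+ and NKG2A KO Ly49C/I+ cells. S100a10, the partner of annexin A2, was at 767 ± 109 CPM in WT uneducated (SD, n = 9), 751 ± 55.5 in WT NKG2A+ (n = 9) and 755 ± 36.1 in WT Ly49C/I+ cells (n = 6), and did not pass. S100a6 (-0.31, SE 0.10) and Pdcd6 (-0.26, SE 0.08) were past the threshold in WT NKG2A+ cells, and Ahnak (0.56, SE 0.13) and Capn1 (0.38, SE 0.11) in NKG2A KO Ly49C/I+ cells. None of the 11 passed in any of the 4 tested comparisons by edgeR's quasi-likelihood test, with 3, 1, 1 and 0 under 0.05 before adjustment. Over all genes those shares were 18.4%, 6.66%, 10.6% and 4.37%. Of 13 glycan enzymes 11 were above the filter, and B4galt1, a galactosyltransferase that builds the units galectins bind, was the only one past the threshold (0.61, SE 0.16, in WT Ly49C/I+ cells). Of 7 genes that control exposure of phosphatidylserine, the lipid annexin A5 binds, only the scramblase-family gene Plscr1 was past it, by 0.25 (SE 0.08) in NKG2A KO Ly49C/I+ cells.

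Among 11 further galectin and annexin genes, Lgals8 (48.3 ± 7.24 CPM) and Anxa11 (50.4 ± 3.75 CPM) were the highest in WT uneducated cells (SD, n = 9) and passed in no comparison. Lgals4, better known from gut epithelium, was at 4.97 ± 1.38 CPM in WT uneducated (SD, n = 9) and 12.5 ± 7.62 in WT Ly49C/I+ cells (n = 6). In NKG2A KO mice it was at 5.31 ± 2.17 CPM (n = 8) and 11.6 ± 4.47 CPM (n = 5), and its log2 fold changes were 1.35 (SE 0.34) and 1.13 (SE 0.34). As Lgals4 lay near the filter of 5 CPM in uneducated cells, it may have passed only through the Ly49C/I+ libraries, where it was high. In WT NKG2A+ cells Lgals4 was at 4.22 ± 3.26 CPM (n = 9), under the filter. Lgals2, Lgals12, Anxa10 and Anxa13 had a mean of 0.00715 CPM or less in every group.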

How the data were processed

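RNA of 37 sorted uNK cell samples had been made into libraries with SMART-Seq v4 and Nextera XT. Per the labels and the study's methods, the authors trimmed reads with Trim Galore 0.5.0, aligned them with STAR 2.7.1 to GRCm38 and deposited raw counts per gene, 1 table a library; the counting program and its strand setting were not given in the sources used here, so reads of overlapping genes on opposite strands may be shared. Summary lines that name no gene were left out (no feature 2.69% to 6.83%, ambiguous 4.04% to 4.60%, not unique 11.3% to 13.8% of a file's total).

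Counts were analysed with edgeR 4.0.16 in R 4.3.3 (TMM, quasi-likelihood test, Benjamini-Hochberg over all genes tested, threshold 0.05) on genes with at least 5 CPM in a share of 0.5 of the libraries compared, with only the compared groups in the fit. SE is the log2 fold change divided by the root of F. Levels are CPM with TMM factors over all libraries, per kilobase of merged exons (GENCODE M21) where genes are compared. Scripts were tested on simulated data. The sum of 1 further marker list is not reported here. The genes named are the 10 members, all genes of a further list past the threshold in a tested comparison, up to 3 a list with the largest change past it over uneducated cells, and the 3 genes most correlated with Lgals3 and with Anxa3. S100a10, Lgals8, Anxa11 and the unexpressed galectins and annexins were named after their values were seen. Members, lists and tests were chosen with earlier results of these data known. WT Ly49C/I+ libraries carry the number in their description, which differs from that in their title. Alternatives were DESeq2 1.42.0, the likelihood ratio test, RLE factors, other filters, GC and length offsets, all groups in 1 fit, a replicate block and leaving out libraries.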

Additional observations from a re-analysis of the deposited data

Results flagged for a closer look

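In 50 sets of values (10 members in 5 groups), 4 single libraries stood apart from the rest of their group by Dixon's test, which chance does in about 1 in 20. Library 5 of WT uneducated cells had 3408.5 CPM of Lgals1 and 2293.7 CPM of Anxa2, the highest of its group for both. Library 4 of NKG2A KO Ly49C/I+ cells had 1394 CPM of Lgals1, the lowest of its group, and 0 CPM of Anxa3. WT uneducated library 5 also had counts for only 13990 genes, against 15572 or more in the rest of its group.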

How the results depend on the processing

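Lgals3 and Anxa3 were lower in educated cells under every alternative, Lgals3 by log2 fold changes of -1.27 to -1.11 and Anxa3 by -3.22 to -2.41 in WT NKG2A+ cells. In WT Ly49C/I+ cells Lgals3 was at -1.05 to -0.92 and Anxa3 at -3.21 to -2.53. In NKG2A KO Ly49C/I+ cells Lgals3 was at -1.07 to -0.71 and Anxa3 at -3.37 to -2.85. Leaving out 1 library at a time gave 8 to 9 members past the threshold in WT NKG2A+, 5 to 7 in WT Ly49C/I+ and 4 to 6 in NKG2A KO Ly49C/I+ cells. Between WT NKG2A+ and Ly49C/I+ cells, 2 members passed with DESeq2 (Anxa6 and Anxa2), 0 with no filter on low counts and 0 with the replicate block (Anxa6 0.34, adjusted p = 0.0576), against 1. The correlation of same-numbered libraries was over 0.1 in 2 of 9, 4 of 6, 1 of 5 and 2 of 6 pairs of the comparisons with shared numbers. As a value over 0.1 was asked of every pair, the numbers were not taken to pair them. The same-numbered library was yet the best match in 6 of 9, 6 of 6, 2 of 5 and 5 of 6 pairs. The unpaired fits may therefore leave out a real pairing. With the replicate block and GC and length offsets together 1 member passed in NKG2A KO Ly49C/I+ cells, against 6. Anxa5 was then at -0.35, against -0.69, and Lgals1 at -0.16, against -0.32. With the GC and length offsets alone, Lgals9 was at 0.33 in these cells, against 0.17. The cause of these shifts was not tested. Some uncalled values near 0 changed sign. Anxa1 in WT Ly49C/I+ against uneducated cells, 0.0062, did so in 9 of 25 alternatives (-0.042 to 0.19), and Anxa6 in NKG2A KO Ly49C/I+ cells was -0.030 with the replicate block. In WT NKG2A+ against Ly49C/I+ cells Lgals1 was -0.049 with the replicate block and -0.014 without the 4 libraries with the fewest genes, an alternative chosen after seeing the data, and -0.033 to 0.027 leaving out 1 library. Without those 4 libraries Anxa2 was 0.0064 in uneducated and -0.020 in Ly49C/I+ cells between genotypes, and -0.069 to 0.0064 and -0.016 to 0.060 leaving out 1 library. For the difference of the Ly49C/I+ effect, leaving out the 4 libraries gave -0.053 for Lgals1, -0.041 for Lgals9 and -0.031 for Anxa2, the replicate block within genotype -0.058 for Lgals9, 0.28 for Anxa3 and -0.14 for Anxa6, and no filter -0.0018 for Lgals9. Leaving out 1 library there gave -0.039 to 0.11 for Lgals1, -0.078 to 0.096 for Lgals3, -0.041 to 0.049 for Lgals9, -0.031 to 0.085 for Anxa6 and -0.072 to 0.11 for Anxa7. Over all genes, calls between WT Ly49C/I+ and uneducated cells went from 855 to 1528 with all groups in 1 fit and 451 with no filter. In NKG2A KO cells they went from 1519 to 748 with the replicate block, 648 with offsets as well and 889 with no filter. Between WT NKG2A+ and Ly49C/I+ cells they went from 254 to 442 with the likelihood ratio test, 558 with DESeq2 and 104 with no filter. Between Ly49C/I+ cells of both genotypes all groups in 1 fit called 18 genes, against 0. Leaving out 1 library gave 466 to 1227 calls in WT Ly49C/I+ cells (539 without uneducated library 3, 564 and 466 without Ly49C/I+ libraries 5 and 7), and 967 to 1763 in NKG2A KO cells (967 without Ly49C/I+ library 4). It gave 147 to 306 between WT NKG2A+ and Ly49C/I+ cells (168 and 163 without NKG2A+ libraries 2 and 8, 154, 155 and 147 without Ly49C/I+ libraries 2, 5 and 7). Between genotypes in Ly49C/I+ cells it gave 0 to 15 (15 without WT library 1, 2 without NKG2A KO library 8). A count of 0, as Anxa3 had in 3 educated libraries, cannot be told from a level of up to 3 reads.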
